A study of Mus musculus with 6 samples.

Results

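The MYC family and the MAX network were followed as 10 mouse genes, Myc, Mycl, Mycn, Max, Mxd1, Mxd3, Mxd4, Mxi1, Mnt and Mga, out of 56980 Ensembl gene identifiers with read counts. Members were taken by symbol, whatever their level, and each of the 10 symbols matched a single identifier. All 10 passed the filter on low counts that left 17901 genes for testing. The tissue was mouse lung tumour labelled small cell lung cancer, a carcinoma that in its classic form carries neuroendocrine genes. There were 3 Keap1 knockout and 3 control samples, both from the model labelled QKO, collected about 4 months after virus was given. Keap1 encodes the adaptor through which the transcription factor NRF2 is marked for degradation, and the study asked what its loss does to the tumours' transcripts. The sample descriptions use KP for the knockout and QKO for the control libraries and explain neither, and strain, age, the alleles of the model and the way Keap1 was inactivated are not given in these sources. The labels leave it unsaid whether each sample is a different mouse, and p-values therefore cover only the variation among the 6 samples.

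MYC proteins act as pairs with MAX: the MYC and MAX dimer binds E-box DNA and raises transcription of genes for ribosome production, nucleotide synthesis and the cell cycle. MXD1, MXD3, MXD4, MXI1, MNT and MGA also pair with MAX, bind the same kind of sites and recruit repressors, so the paralogues and the antagonists compete for a common partner. In small cell lung cancer amplification of MYC, MYCL or MYCN is a known, usually mutually exclusive event, with MYCL linked to the classic neuroendocrine form and MYC to variant forms with weaker neuroendocrine features.

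The libraries held between 21801647 and 23759892 counted reads in knockouts and between 18731515 and 20065069 in controls. Keap1 RNA stood at 67.5, 93.0 and 79.9 CPM in knockouts 1 to 3 and at 78.4, 74.5 and 58.7 CPM in controls 1 to 3 (CPM, counts scaled to a common library total), so transcript level did not separate the genotypes. Xist, the RNA of the inactive X chromosome, stood at 0.280, 1291 and 1429 CPM in knockouts 1 to 3 and at 2.34, 1497 and 1.54 CPM in controls 1 to 3, so each group held libraries with and without it. Markers of the labelled tumour type varied from gene to gene and between libraries, and 3 of 9 reached 1 CPM in each knockout, against 8, 4 and 9 of 9 in controls 1 to 3. The neuronal factor Neurod1 had no read in any knockout and 3, 4 and 1923 reads in controls 1 to 3, and the neuroendocrine factor Insm1 had 2, 0 and 0 reads in knockouts 1 to 3 and 354, 28 and 12495 in controls 1 to 3. The neuropeptide gene Calca, also in the list, stood at 116, 32.5 and 20.0 CPM in knockouts and at 37.0, 0.941 and 2037 CPM in controls. The 9 neuroendocrine markers summed to between 54.5 and 214 CPM in knockouts and to 107, 73.0 and 4895 CPM in controls 1 to 3. Control 1 held 6868 CPM of 6 squamous markers, against at most 61.9 CPM in a knockout and 8.92 CPM in another control. Control 2 held 33330 CPM of 6 fibroblast markers, against at most 808 CPM in a knockout and 2751 CPM in another control. Immune markers (7 genes) summed to between 547 and 1120 CPM in knockouts and between 266 and 1039 CPM in controls. Lyz2 held most of the knockout sums, at 397, 1004 and 496 CPM in knockouts 1 to 3. Of the 7, 5 had a log2 ratio of knockout over control below 0 and 2 above. Ptprc and C1qb were lower in every knockout than in any control, as were 19.1% of all tested genes. None of the 7 passed in edgeR at an adjusted p below 0.05, against 4.31% of all tested genes. In such bulk samples fewer cells of a type and less RNA per cell cannot be told apart, and the part these markers play in the values below was not tested.

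Myc was the member that separated the genotypes most clearly. Myc (ENSMUSG00000022346), the prototype oncogene of the family, stood at 110, 97.2 and 109 CPM in knockouts 1 to 3 and at 35.6, 29.3 and 20.0 CPM in controls 1 to 3. No control reached the level of any knockout, and the lowest knockout was well over the highest control. The means were 105.5 ± 7.19 CPM in knockouts and 28.3 ± 7.88 CPM in controls (SD, n = 3 each), a ratio of 3.73. In edgeR's quasi-likelihood test across all tested genes the log2 ratio of knockout over control was 1.90 ± 0.25 (SE) and the adjusted p 0.0308. Without control 2 the adjusted p by edgeR was 0.0608, and without knockout 1, 2 or 3 it was 0.138, 0.196 and 0.186, while the log2 ratio stayed between 1.70 and 2.10 when any single library was left out. With Xist level as a term in the edgeR fit the adjusted p of Myc was 0.0851, which did not pass. Few genes passed in those fits: 27 of all tested with the Xist term, and 2, 0 and 0 without knockout 1, 2 or 3. With all 6 samples and genotype alone, 771 did. Over 15 alternative settings Myc passed in 9, with adjusted p 0.0193 by limma voom and 1.29e-06 by DESeq2. The authors' deposited table gave it an adjusted p of 1.35e-06 by DESeq2.

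Mycn ran the other way, at levels where few reads were counted. Mycn (ENSMUSG00000037169), the paralogue of neural progenitors, had 54, 28 and 5 reads in knockouts 1 to 3 and 64, 217 and 329 reads in controls 1 to 3. Scaled, these were 2.52, 1.28 and 0.220 CPM in knockouts and 3.25, 10.8 and 16.4 CPM in controls. The groups did not overlap, although knockout 1, with a 95% Poisson interval of 1.89 to 3.29 CPM, and control 1, with 2.50 to 4.15 CPM, were not distinct at this depth. Both intervals cover counting error only. Knockout 3 had the least Mycn and control 3, the library rich in neuroendocrine markers, the most. In edgeR its log2 ratio of -2.91 ± 1.00 (SE) missed the threshold with adjusted p 0.122. DESeq2, run as an alternative, passed it at an adjusted p of 0.0142, and so did the authors' deposited table, with a log2 fold change of -2.93 and an adjusted p of 0.0149. DESeq2 called 18.6% of the genes to which it gave an adjusted p, against 4.31% by edgeR, and the authors' deposited table holds 17.8% of its genes below an adjusted p of 0.05.

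Mycl differed more among the controls than between the genotypes. Mycl (ENSMUSG00000028654), the paralogue first found amplified in small cell lung cancer, stood at 94.1, 88.2 and 110 CPM in knockouts 1 to 3 and at 119, 47.7 and 85.2 CPM in controls 1 to 3. The knockouts fell inside the range of the controls, with control 1 highest of all libraries and control 2 lowest. The means were 97.5 ± 11.4 CPM in knockouts and 84.0 ± 35.7 CPM in controls (SD, n = 3 each). The log2 fold change of 0.22 ± 0.34 (SE) had an adjusted p of 0.694 by edgeR, and without control 2 it was -0.05.

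**Figure D1:**
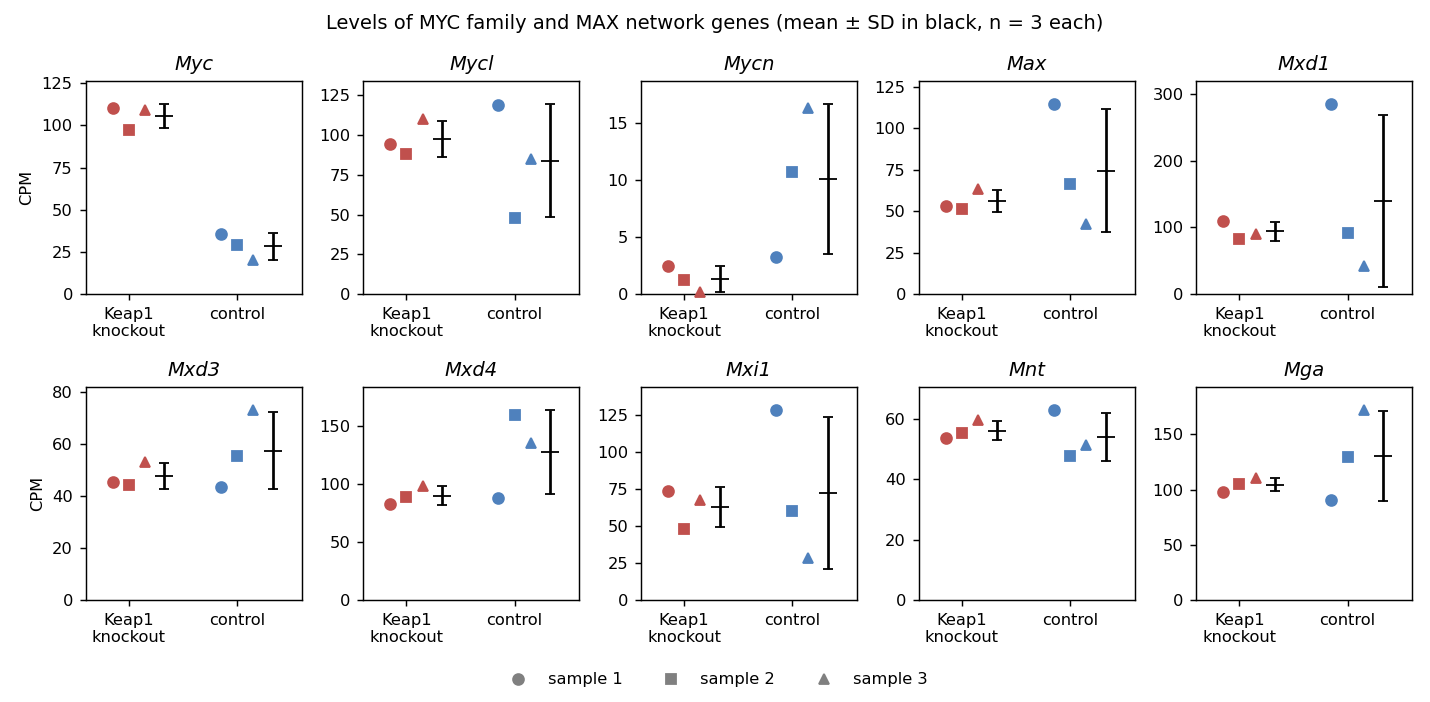
Levels in CPM (vertical axes, each starting at 0 and scaled to its gene) of the 10 genes in Keap1 knockout samples (red) and control samples (blue), with a marker shape for each sample number and the mean ± SD in black, n = 3 each. Myc lay between 97.2 and 110 CPM in knockouts and between 20.0 and 35.6 CPM in controls, and Mycn was the other gene whose groups did not overlap.

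Of the 10 members, 1 rose and none fell by edgeR at an adjusted p below 0.05, where 4.31% of all tested genes were called, 2.42% as higher and 1.89% as lower in the knockout. At an unadjusted p below 0.05 edgeR had 30.7% of all tested genes, Myc and Mycn among them, and limma voom called 5.96% and of the members Myc. Groups without overlap were seen in 2 of the 10, Myc and Mycn, against 40.7% of all tested genes. The median log2 fold change of the members was -0.30, that of all tested genes -0.08. The other 9 members had adjusted p from 0.122 to 0.849 in the same edgeR fit.

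Because transcripts differ in length, levels of different genes were compared after division by the length of the principal transcript, as CPM per kilobase. On this scale Myc held 47.1, 41.6 and 46.7 CPM per kilobase in knockouts 1 to 3 and 15.2, 12.6 and 8.54 in controls 1 to 3. Mycl held 26.9, 25.2 and 31.5 CPM per kilobase in knockouts and 34.0, 13.6 and 24.4 in controls. Myc was thus the leading paralogue in each knockout and Mycl in each control, though by little in control 2. Of the summed level of the 3 paralogues, Myc made up 62.8%, 61.8% and 59.7% in knockouts 1 to 3 and 30.2%, 41.6% and 21.9% in controls 1 to 3. Mycn made up 1.26%, 0.713% and 0.105% in knockouts, and 2.41%, 13.3% and 15.7% in controls. Undivided by length, Mycl took as many reads as Myc in knockout 3, at 50.2% and 49.7% of the paralogue total.

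The sum of the 3 paralogues was 74.9, 67.2 and 78.3 CPM per kilobase in knockouts 1 to 3 and 50.4, 30.2 and 39.0 in controls 1 to 3. The sum of the 6 antagonist genes was 129, 114 and 135 CPM per kilobase in knockouts and 192, 148 and 135 in controls. Antagonists over paralogues came to 1.73, 1.69 and 1.72 in knockouts and to 3.81, 4.90 and 3.46 in controls. The knockouts were nearly alike in this ratio and lay below every control. Myc, the member called by edgeR, made up 62.8%, 61.8% and 59.7% of the divisor in knockouts 1 to 3. The ratio therefore carries the rise in Myc and is not a separate result. The antagonist sum alone was 135 CPM per kilobase in both knockout 3 and control 3. Max, the common partner, stood at 27.4, 26.6 and 32.8 CPM per kilobase in knockouts, below the summed paralogues in each. In controls 1 to 3, Max stood at 59.1, 34.2 and 21.8 CPM per kilobase, above the paralogue sum in controls 1 and 2 and below it in control 3. With the length of all annotated exons as divisor, an alternative added after seeing the data, the ratio of antagonists to paralogues averaged 1.14 ± 0.00723 in knockouts and 2.68 ± 0.448 in controls, and undivided by length 2.23 ± 0.0418 in knockouts and 4.92 ± 1.11 in controls (SD, n = 3 each). Every knockout lay below every control on all 3 scales, but Max was below the paralogue sum in all 6 libraries on both of the other scales. These sums describe RNA and say nothing of the amounts of protein, and they carry no test.

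**Figure D2:**
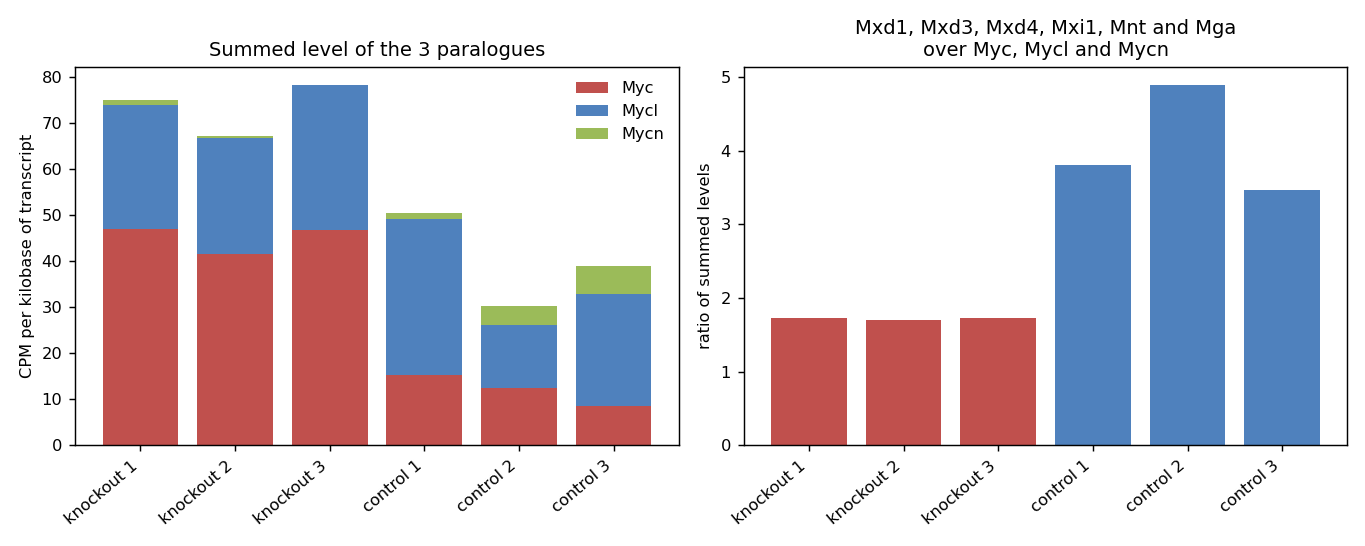
Left, level of Myc, Mycl and Mycn per library, stacked, in CPM per kilobase of principal transcript. Right, summed level of Mxd1, Mxd3, Mxd4, Mxi1, Mnt and Mga divided by that of the 3 paralogues, knockouts in red and controls in blue. The ratio was 1.69 to 1.73 in knockouts and 3.46 to 4.90 in controls.

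In knockouts the mean level ran, from high to low, Myc at 45.1 ± 3.07, Mxd3 at 35.9 ± 3.75, Max at 28.9 ± 3.38, Mycl at 27.9 ± 3.27 and Mxi1 at 27.0 ± 5.76 CPM per kilobase (SD, n = 3). Mxd4 at 23.2 ± 2.11, Mxd1 at 20.2 ± 3.00, Mnt at 12.2 ± 0.699, Mga at 7.50 ± 0.438 and Mycn at 0.501 ± 0.430 CPM per kilobase followed. Neighbours in this order from Mxd3 down to Mxd1 differed by less than the sum of their SDs. In controls Mxd3 led at 43.3 ± 11.2 and Max followed at 38.4 ± 19.0 CPM per kilobase. Mxd4, Mxi1, Mxd1 and Mycl held 32.95 ± 9.33, 31.0 ± 21.8, 29.9 ± 27.5 and 24.0 ± 10.2 CPM per kilobase there. Myc came next in controls at 12.1 ± 3.37, beside Mnt at 11.8 ± 1.73, with Mga at 9.37 ± 2.93 and Mycn at 3.79 ± 2.46 CPM per kilobase last (SD, n = 3). In controls only the step from Mga to Mycn was larger than the sum of the SDs of both genes. The order depends on the length used: per kilobase of all annotated exons Myc still led in knockouts at 38.8 ± 2.64 and Mycn was last in both groups, but Mycl came next in knockouts at 24.2 ± 2.83, ahead of Mxd3 at 20.1 ± 2.10 and Max at 15.6 ± 1.83 (CPM per kilobase, SD, n = 3).

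The partner gene and the antagonists Mxd1 and Mxi1 shared a pattern in which control 1 was high and control 3 low. Max (ENSMUSG00000059436) stood at 53.2, 51.6 and 63.7 CPM in knockouts 1 to 3 and at 115, 66.4 and 42.3 CPM in controls 1 to 3. Mxd1 (ENSMUSG00000001156), an antagonist that rises as epithelial and blood cells differentiate, stood at 110, 82.2 and 90.6 CPM in knockouts and at 285, 90.9 and 42.6 CPM in controls. Mxi1 (ENSMUSG00000025025), also known as MXD2, stood at 73.7, 48.0 and 67.8 CPM in knockouts and at 129, 60.2 and 28.6 CPM in controls. For all 3 genes control 1, the library with squamous markers, was the highest of the 6 libraries and control 3 the lowest, and the knockouts lay between them. The log2 fold changes were -0.41 ± 0.37 for Max, -0.57 ± 0.66 for Mxd1 and -0.20 ± 0.54 for Mxi1 (SE), with adjusted p of 0.488, 0.590 and 0.826 by edgeR. Without control 1 they became 0.05, 0.50 and 0.51, so that their signs depended on this library. The sign of Mxi1 also turned with all 6 libraries, to 0.04 by limma voom and to 0.0223 in an edgeR fit with sample number as a term.

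Mga, Mxd3 and Mxd4 were highest in a control library other than control 1. Mga (ENSMUSG00000033943), a large protein that binds MAX and also carries a T-box domain, stood at 98.0, 105 and 110 CPM in knockouts 1 to 3 and at 90.3, 129 and 172 CPM in controls 1 to 3. Mxd3 (ENSMUSG00000021485), the antagonist expressed in dividing rather than resting cells, stood at 45.5, 44.2 and 53.4 CPM in knockouts and at 43.8, 55.4 and 73.2 CPM in controls. Both peaked in control 3 and were lowest in control 1, the reverse of Max, Mxd1 and Mxi1. Mxd4 (ENSMUSG00000037235), another repressor of the MXD group, stood at 82.5, 88.7 and 98.7 CPM in knockouts and at 88.2, 159 and 135 CPM in controls, with control 2, the library rich in fibroblast markers, highest. The log2 fold changes were -0.32 ± 0.26 for Mga, -0.27 ± 0.24 for Mxd3 and -0.50 ± 0.25 for Mxd4 (SE), and the adjusted p by edgeR were 0.427, 0.470 and 0.225. Mxd3 shares 105 exon bases with Prelid1 on the opposite strand in the annotation used here, and the counting is not stated to use strand, so reads of both genes there cannot be told apart.

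Mnt, the antagonist found in nearly all cell types, varied least. Mnt (ENSMUSG00000000282) stood at 53.5, 55.2 and 59.7 CPM in knockouts 1 to 3 and at 62.9, 47.7 and 51.3 CPM in controls 1 to 3. The knockouts lay within the control range. Its log2 ratio in edgeR was 0.06 ± 0.18 (SE), adjusted p 0.849. Among members the coefficient of variation was 5.71% in knockouts and 14.8% in controls for Mnt, 14.9% and 92.0% for Mxd1 and 21.3% and 70.5% for Mxi1. By this measure 9 of 10 members, Mycn being the exception, varied more among controls than among knockouts. The ratio of the control to the knockout SD of log2 CPM ran from 0.762 for Mycn, 2.53 for Mxd3 and 2.54 for Mnt to 4.39 for Max, 5.48 for Mga and 6.55 for Mxd1, against a median of 2.51 over all tested genes.

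**Figure D3:**
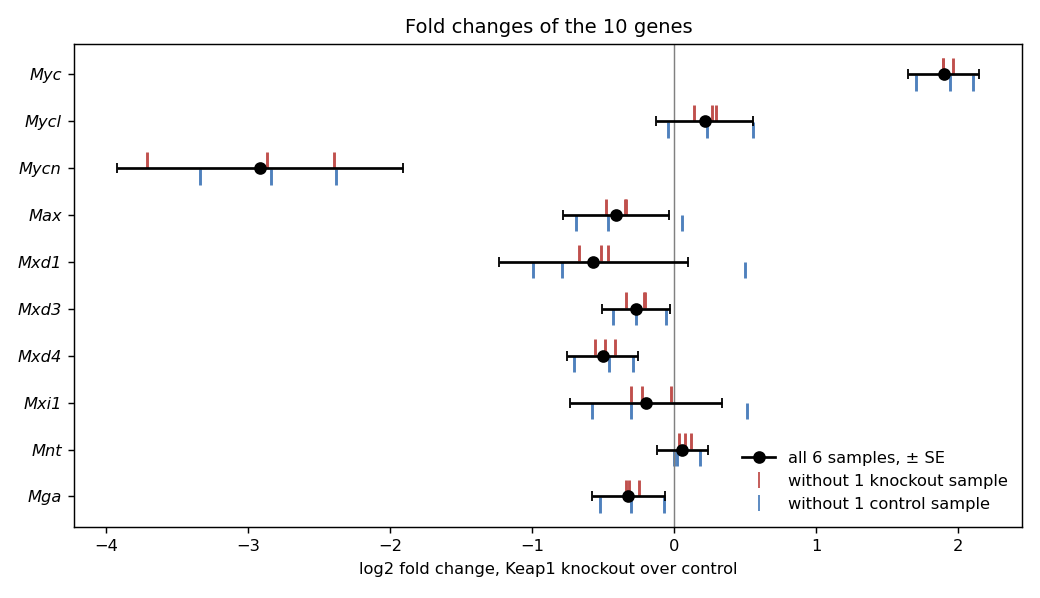
Log2 fold changes of the 10 genes, knockout over control, with all 6 samples (black, ± SE, edgeR) and with each knockout (red ticks) or control (blue ticks) left out. Myc stayed between 1.70 and 2.10 and Mycn between -3.71 and -2.38, while Max, Mxd1 and Mxi1 changed sign without control 1.

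Promoters were examined for E-boxes (CACGTG), which MYC and its antagonists bind, for the E2F cores TTCCCGC and TTGGCGC, and for the antioxidant response element TGACNNNGC, through which NRF2 acts. RefSeq promoter sequences on build GRCm38.p6 matched 9 of the 10 members, Myc not among them, in 11 windows of the 250 bases before a start. On either strand E-boxes were found in 2 members, E2F cores in 2 and the antioxidant response element in 5 (Max, Mxd1, Mxd3, Mxi1 and Mga). Of 32851 such windows over all genes, 6.02%, 5.62% and 10.2% held a match of each kind. These shares count single windows, whereas a member was counted if any of its windows matched, and Mxi1 had several windows. The windows with an E2F core or an E-box are shown 5′ to 3′ on the strand of the gene, with matches in capitals: Mycn at chr12:12941837-12942086 (minus strand), Mxd3 at chr13:55329732-55329981 (minus strand), Mxd4 at chr5:34187711-34187960 (minus strand) and Mnt at chr11:74830674-74830923 (plus strand).
Mycn: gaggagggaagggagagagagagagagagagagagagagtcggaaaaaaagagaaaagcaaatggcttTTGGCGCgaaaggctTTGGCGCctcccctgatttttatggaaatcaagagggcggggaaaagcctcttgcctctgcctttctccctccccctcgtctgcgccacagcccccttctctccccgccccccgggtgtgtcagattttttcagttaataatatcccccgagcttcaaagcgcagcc
Mxd3: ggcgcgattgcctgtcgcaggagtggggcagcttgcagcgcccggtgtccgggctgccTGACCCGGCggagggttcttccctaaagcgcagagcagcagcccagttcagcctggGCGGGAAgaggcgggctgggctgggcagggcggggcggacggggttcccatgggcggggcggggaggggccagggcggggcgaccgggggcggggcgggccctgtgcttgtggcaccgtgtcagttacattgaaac
Mxd4: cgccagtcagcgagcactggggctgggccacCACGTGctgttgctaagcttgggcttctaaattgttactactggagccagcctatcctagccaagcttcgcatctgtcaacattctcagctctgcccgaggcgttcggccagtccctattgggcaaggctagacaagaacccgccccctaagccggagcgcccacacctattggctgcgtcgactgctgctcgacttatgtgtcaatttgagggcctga
Mnt: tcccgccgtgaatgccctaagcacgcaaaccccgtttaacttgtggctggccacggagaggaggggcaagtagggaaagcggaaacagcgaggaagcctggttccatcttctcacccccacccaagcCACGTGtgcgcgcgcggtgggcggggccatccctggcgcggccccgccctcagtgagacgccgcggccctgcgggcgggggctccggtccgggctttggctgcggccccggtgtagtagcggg
The Mycn window holds a pair of E2F cores, 182 and 167 bases before the start. The Mxd3 window holds an E2F core on the opposite strand and, further from the start, an antioxidant response element, and its gene did not pass between genotypes. Mxd4 and Mnt each hold a single E-box, 219 and 123 bases before the start. A match describes the letters in the window and not a bound factor.

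The genes flanking the paralogues were compared next, because amplification can raise neighbours together. Of 18 protein-coding genes, the nearest 3 on each side of Myc, Mycl and Mycn, 10 were expressed enough to test. None of the 10 was called by edgeR, against 4.31% of all tested genes, with adjusted p from 0.160 to 0.990. Beside Myc only Trib1, a pseudokinase gene, had reads enough, at 45.3 to 67.1 CPM in knockouts and 61.4 to 73.2 CPM in controls. Beside Mycl the actin regulator gene Cap1 stood at 254, 266 and 246 CPM in knockouts 1 to 3 and at 248, 264 and 106 CPM in controls 1 to 3. The groups did not overlap for Mfsd2a, a lipid transporter gene, and Bmp8b, a growth factor gene, which had log2 ratios of 0.92 ± 0.43 and 1.28 ± 0.57 (SE) with adjusted p of 0.205 and 0.188 in edgeR. Groups without overlap were common, in 40.7% of all tested genes. Beside Mycn the helicase gene Ddx1, often co-amplified with MYCN in human tumours, stood at 117, 99.0 and 113 CPM in knockouts and at 75.7, 107 and 144.5 CPM in controls. For Ddx1 the groups overlapped and control 3 was highest, as it was for Mycn. Smc6, a subunit gene of a DNA repair complex on the other side of Mycn, stood at 107, 94.5 and 123 CPM in knockouts and at 133, 147 and 248 CPM in controls. For Smc6 every knockout was below every control, as in 19.1% of all tested genes, with adjusted p 0.160 in edgeR. The long non-coding gene Pvt1, which lies next to Myc and was singled out after its values were seen, stood at 8.49, 7.51 and 6.94 CPM in knockouts and at 1.52, 2.63 and 2.24 CPM in controls. All knockouts exceeded all controls, as in 21.5% of all tested genes, but in edgeR the log2 ratio of 1.84 ± 0.38 (SE) missed the threshold with adjusted p 0.0533. It did pass by limma voom (0.0407, or 0.0630 with a spread per genotype), by DESeq2 (3.31e-05), by edgeR without control 3 (0.0338) and under the filter of 1 CPM in 3 samples (0.0463).

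Genes known as inputs to Myc showed calls in both directions. Of 20 tested, Igf2bp2 rose and Rbpj fell, where edgeR called 4.31% of all tested genes. The list median was -0.62. Igf2bp2 encodes an RNA-binding protein of a family that stabilises MYC mRNA, and it stood at 28.1, 30.6 and 40.04 CPM in knockouts 1 to 3 and at 6.29, 8.42 and 5.53 CPM in controls 1 to 3. In edgeR its log2 ratio was 2.28 ± 0.30 (SE), adjusted p 0.0300, and it missed the threshold by limma voom when each genotype had its own spread (0.0518). Igf2bp3 of the same family was lower in every knockout, at means of 0.55 CPM in knockouts and 1.43 CPM in controls. Its log2 ratio in edgeR was -1.38 ± 0.39 (SE), adjusted p 0.0848. Igf2bp1, also of the family, had 0.06 ± 1.21 (SE), adjusted p 0.978 in edgeR. Rbpj encodes the DNA-binding partner of Notch and stood at 60.3, 51.8 and 48.8 CPM in knockouts and at 101, 116 and 112 CPM in controls, for which edgeR gave a log2 ratio of -1.03 ± 0.16 (SE), adjusted p 0.0390. That call was lost without control 2 (0.0660) and without the filter (0.0629). Neither Igf2bp2 nor Rbpj passed when any one of the knockouts was left out, where edgeR called at most 2 of all tested genes. The adjusted p by edgeR then ran from 0.130 to 0.201 for Igf2bp2 and from 0.142 to 0.226 for Rbpj.

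Targets of MYC were split by function. Of 22 genes of the nucleolus and ribosome production, 1 rose and none fell by edgeR, where 4.31% of all tested genes were called. Limma voom called 1, against 5.96% of all tested genes. DESeq2 called 5, against 18.6% of the genes to which it gave an adjusted p. For 11 the unadjusted edgeR p was below 0.05, against 30.7% of all tested genes. Log2 fold changes were above 0 in 19, against 8257 of all 17901 tested genes. In 15 every knockout exceeded every control, against 21.5% of all tested genes. Every knockout was below every control in 2, Ddx21 and Ubtf, against 19.1%. The list median was 0.49. Fbl, the methyltransferase fibrillarin of the nucleolus, was the gene that passed, at 109, 119 and 120 CPM in knockouts 1 to 3 and 46.4, 67.3 and 63.0 CPM in controls 1 to 3, and edgeR put its log2 ratio at 0.98 ± 0.19 (SE), adjusted p 0.0494. That call was lost with RLE scaling (0.0522), without the filter (0.0745), without control 1 (0.0548), without control 2 (0.0660) and without any one knockout (0.170 to 0.236). With a knockout left out, edgeR called at most 2 of all tested genes. Npm1, nucleophosmin, had 0.71 ± 0.19 (log2 ratio ± SE) with adjusted p 0.0798 in edgeR.

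Of 20 growth metabolism targets, 2 were called by edgeR, against 4.31% of all tested genes. Cad was among them and rose, and the list median was 0.16. Cad encodes the enzyme that starts pyrimidine synthesis, and it stood at 303, 219 and 244 CPM in knockouts 1 to 3 and at 38.9, 90.7 and 59.4 CPM in controls 1 to 3. Its log2 ratio in edgeR was 2.02 ± 0.35 (SE), adjusted p 0.0417. Without any one knockout Cad did not pass, with adjusted p from 0.160 to 0.217, and at most 2 of all tested genes did. Odc1, the polyamine enzyme often used as a readout of MYC, had a log2 ratio of -1.17 ± 0.30 (SE), adjusted p 0.0738 in edgeR, every knockout being below every control.

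Of 17 cell cycle and translation targets none was called by edgeR or limma voom, against 4.31% and 5.96% of all tested genes. DESeq2 called 2, against 18.6% of the genes to which it gave an adjusted p. An unadjusted edgeR p below 0.05 was found for 4, against 30.7% of all tested genes. The smallest p among them belonged to Mcm7, a subunit of the replicative helicase, at a log2 fold change of 0.79 ± 0.19 (SE), and Eif4a1, a translation helicase, at 0.54 ± 0.18, with adjusted p of 0.0676 and 0.116. Of 12 genes that MYC represses with MIZ1 or MAX none was called by edgeR or limma voom. DESeq2 called 1, against 18.6% of the genes to which it gave an adjusted p. Only 1 had an unadjusted edgeR p below 0.05, against 30.7% of all tested genes. That gene, the growth arrest gene Gas1, stood at 4.803, 6.09 and 3.43 CPM in knockouts 1 to 3 and at 13.7, 23.9 and 37.6 CPM in controls 1 to 3 (edgeR adjusted p 0.0505). Gas1 did pass with RLE scaling (0.0492), under the filter of 1 CPM in 3 samples (0.0456), by limma voom when each genotype had its own spread (0.0408), and without control 1 (0.0447) or control 3 (0.0311). Cdkn1a, the inhibitor p21, had a log2 ratio of -0.47 ± 0.20 (SE), adjusted p 0.182 in edgeR.

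**Figure D4:**
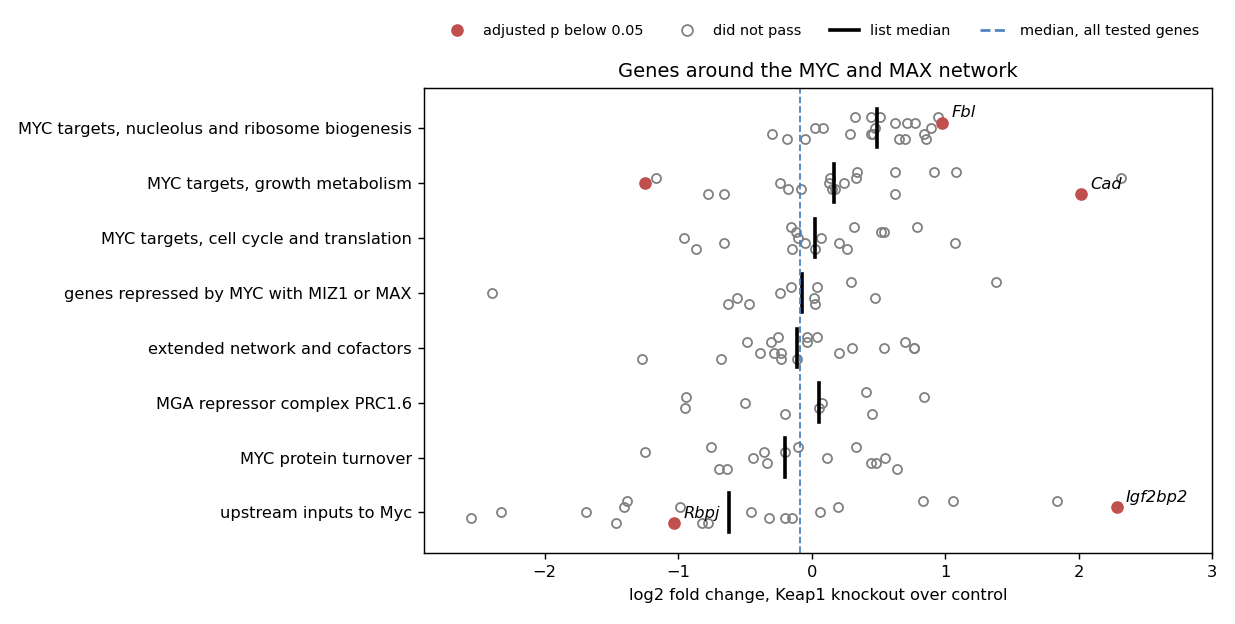
Log2 fold changes, knockout over control, of the tested genes in 8 lists around the MYC and MAX network; filled points passed an adjusted p of 0.05 by edgeR, black bars are list medians and the dashed line is the median of all tested genes (-0.08). The nucleolus and ribosome list had the highest median, 0.49, and Fbl, Cad, Igf2bp2 and Rbpj are labelled among the calls.

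Of 19 genes of the extended network and its cofactors none was called by edgeR or limma voom. DESeq2 called 2, against 18.6% of the genes to which it gave an adjusted p. An unadjusted edgeR p below 0.05 was found for 5, against 30.7% of all tested genes. The list had a median log2 fold change of -0.11. The 2 with the smallest p were Cdk9, the elongation kinase recruited by MYC, at 0.54 ± 0.14, and Ruvbl2, an ATPase of MYC coactivator complexes, at 0.70 ± 0.19 (log2 fold change ± SE), with adjusted p of 0.0779 and 0.0789 by edgeR. Ruvbl1 and Kat5, partners of Ruvbl2, had 0.77 ± 0.21 and 0.77 ± 0.23, with adjusted p of 0.0797 and 0.0917 by edgeR. Ep400, another subunit gene of that coactivator group, ran the other way at -0.48 ± 0.17 with adjusted p 0.123, every knockout being below every control. Mlx, the MAX-like partner of the glucose sensors MondoA and ChREBP, stood at 23.4, 22.3 and 23.9 CPM in knockouts 1 to 3 and at 42.8, 25.2 and 17.8 CPM in controls 1 to 3, which was the order of controls seen for Max. Mlxip (MondoA) and Mlxipl (ChREBP) had log2 fold changes of -0.03 ± 0.30 and -1.27 ± 0.57 (SE), with adjusted p of 0.951 and 0.189.

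Of 9 other subunits of the repressor complex that MGA nucleates, PRC1.6, none was called by edgeR or limma voom. DESeq2 called 2, against 18.6% of the genes to which it gave an adjusted p. An unadjusted edgeR p below 0.05 was found for 3, against 30.7% of all tested genes. Pcgf6, the Polycomb ring finger subunit of the complex, and Rybp, a shared Polycomb subunit, had log2 fold changes of 0.84 ± 0.23 and -0.94 ± 0.27 (SE), with adjusted p of 0.0795 and 0.0852. Of 15 genes that act on MYC protein stability none was called by edgeR or limma voom. DESeq2 called 2, against the same 18.6%, and 7 had an unadjusted edgeR p below 0.05, against 30.7% of all tested genes. Gsk3b, the kinase that primes MYC for degradation, stood at 123, 115 and 111 CPM in knockouts 1 to 3 and at 203, 169 and 216 CPM in controls 1 to 3. Fbxw7, the ubiquitin ligase subunit that reads that mark, stood at 17.5, 19.0 and 15.7 CPM in knockouts and at 34.9, 25.8 and 63.5 CPM in controls. Every knockout was below every control for both, against 19.1% of all tested genes, and neither passed, with adjusted p of 0.0601 and 0.0924 by edgeR.

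The genes whose log2 CPM followed a paralogue most closely over the 6 libraries were listed among genes with a mean of at least 5 CPM, as a description with no test. For Myc they were Ces1f, Smtnl2, Pla2g6, Prss16 and Thap4, with Pearson r from 0.998 to 0.9998, and the choice itself fixes that their genotypes are apart as those of Myc are. Ces1f, a carboxylesterase gene, stood at 112, 69.9 and 91.9 CPM in knockouts 1 to 3 and at 1.32, 0.545 and 0.0498 CPM in controls 1 to 3, sharing even the order of the libraries within each group. For Mycl they were Myom3, Cdkl2, Fuom, Sytl1 and Prkar2b (r from 0.973 to 0.996), and for Mycn they were Bcar1, Gramd4, Cyb5d1, Fgd3 and Coro1a (r from 0.988 to 0.998). The 6 points share their libraries and scaling, and all genes were compared on them, 12645 in number.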

How the data were processed

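RNA-seq of 6 tumour samples was deposited as a table of raw counts per gene. Per the submitters' processing notes the authors used STAR, build mm39 and DESeq2. The authors' deposited table holds their log2 fold changes, p-values, score columns (test statistics) and a mean signal. Counts were refitted here with edgeR 4.0.16 in R 4.3.3: TMM scaling, filterByExpr, robust quasi-likelihood test, Benjamini-Hochberg adjustment over 17901 genes, threshold 0.05. The fit used all 6 samples and genotype alone, since same-numbered samples did not deviate together (correlations 0.0176, 0.00012 and 0.0507). DESeq2 1.42.0 and limma 3.58.1 were alternatives. Lengths came from a GRCm38 annotation, a different build from that of the counts, and promoters from RefSeq. The code was tested on simulated data. Members and gene lists were chosen with earlier results of these data known. Named list genes were those called by edgeR and otherwise the 2 with the smallest p in a list, and any others, such as Npm1, Odc1, Ruvbl1, Kat5, Ep400, Mlx, Mlxip, Mlxipl and Pvt1, were chosen after their values were seen. Total counts ranged from 18731515 to 23759892, and intervals cover counting error only. Some genes of the lists are not reported by name here.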

Additional observations from a re-analysis of the deposited data

How the results depend on the processing

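Over all genes edgeR made 771 calls, against 465 without the filter, 4122 by DESeq2 and 27 with Xist level as a term. Without knockout 1, 2 or 3 it made 2, 0 and 0 calls over all genes, so nearly every call was lost there. Without control 1, 2 or 3 it made 735, 269 and 3209. Same-numbered samples shared only a number, and with the replicate block 0 genes were called. Member calls numbered 2 by DESeq2, 0 with the replicate block or the Xist term and 0 to 1 with a library left out. The 6 calls in the lists became 37 by DESeq2, 10 by limma voom, 0 with the replicate block or the Xist term and 0 to 30 with a library left out, and none of the 6 passed without any one knockout. Undivided by length the knockout means were 51.7% for Myc and 47.7% for Mycl, against 61.4% and 37.9% per kilobase. A union-exon length, added after seeing the data, kept the order of the paralogues. Log2 fold changes with a library left out ran from -0.0451 to 0.55 for Mycl, -0.69 to 0.0531 for Max, -0.9962 to 0.50 for Mxd1, -0.58 to 0.51 for Mxi1, -0.0024 to 0.19 for Mnt, -0.0047 to 0.5447 for Cap1, -0.194 to 0.2674 for Ddx1, -0.5483 to 0.1153 for Mlx, -0.2448 to 0.2505 for Mlxip and -0.1444 to 0.2457 for Ppt1. Mxi1 turned to 0.04 and 0.0403 by limma voom (common spread and spread per genotype) and 0.0223 with the replicate block. In the same order Mlxip turned to 0.0063, 0.0066 and 0.0035, and Ppt1 to 0.0249, 0.0248 and 0.0261. Without the filter Mlxip had 0.0058 and Ppt1 0.0311. Ppt1 had 0.0044 with upper-quartile scaling, and Ddx1 -0.0216 with RLE scaling and -0.0152 with 1 CPM in 3 samples. The cause was not tested.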

Other observations

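Of 6 targets of MondoA and ChREBP none was called by edgeR and 1 by limma voom, which called 5.96% of all tested genes. DESeq2 called 2, against 18.6% of the genes to which it gave an adjusted p. An unadjusted edgeR p below 0.05 was found for 2, against 30.7% of all tested genes. Txnip, the arrestin that restrains glucose uptake, stood at 968, 1051 and 1919 CPM in knockouts 1 to 3 and at 476.5, 307 and 225 CPM in controls 1 to 3. Its log2 ratio in edgeR was 1.97, adjusted p 0.0553. The other 5 had log2 ratios below 0 and the list median was -0.22. Acaca, the first enzyme of fatty acid synthesis, stood at 51.6, 34.1 and 37.5 CPM in knockouts 1 to 3 and at 90.0, 65.4 and 106 CPM in controls 1 to 3, with a log2 ratio of -1.09 and adjusted p 0.0671 in edgeR. Of 10 proliferation genes none was called by edgeR, limma voom or DESeq2, with 1 at an unadjusted edgeR p below 0.05, against 30.7% of all tested genes. The 10 genes summed to between 3313 and 3743 CPM in knockouts and between 2554 and 3899 CPM in controls. Of 4 tuft cell markers 2 were tested. Avil fell to 1.49, 1.19 and 1.85 CPM in knockouts 1 to 3, against 28.4, 27.2 and 10.01 CPM in controls 1 to 3 (edgeR adjusted p 0.0326). That call was lost without control 2 (0.0607) and without any one knockout (0.143 to 0.217), where at most 2 of all tested genes passed. Dclk1 was also lower in every knockout but did not pass (edgeR adjusted p 0.0594). Pou2f3 stayed below 1 CPM in every library, and Trpm5 averaged 0.468 CPM in knockouts and 0.383 CPM in controls. The 4 endothelial markers summed to between 95.5 and 154 CPM in knockouts and between 76.3 and 286 CPM in controls.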
